A study of Mus musculus with 15 samples.

Results

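The genes described here copy DNA and part the copies between daughter cells: the helicase, origin and polymerase genes, the condensin and cohesin genes, the centromere, checkpoint and anaphase-promoting genes, and the kinesin, centrosome and tubulin genes. They were taken from the authors' deposited tables of open chromatin in mouse pancreatic islets by gene symbol alone, as every name that begins with Mcm, Orc, Cdc, Rfc, Cenp, Kif, Ncap, Smc, Aurk, Bub, Anapc, Cep or Tub followed by its member number or letter, and the polymerase genes Pola, Pold and Pole. The rule found 118 gene names of 10268 in the tables, with 141 separate peak positions. It also takes in genes with other tasks, such as transport kinesins and Cdc42 partners, so a core of replication and segregation genes was kept apart, which holds 53 of the 112 member genes listed for genotype after surgery. Of the 118 names, 4 are non-coding (Anapc15-ps, Cep83os, Kif16bos and Smc2os).

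A cell licenses its origins by loading the Mcm helicase onto DNA marked by the origin recognition complex, and polymerases with their clamp loader then copy both strands. Condensin and cohesin fold and hold the copies, the centromere proteins build the kinetochore, and the spindle of tubulin, moved by kinesins and anchored at centrosomes, pulls the copies apart once the checkpoint releases the anaphase-promoting complex. Many S-phase genes are driven by E2F factors, and many mitotic genes by the CHR element together with CCAAT boxes. Adult beta cells rarely divide, and removal of part of the pancreas is known to raise their division in mice. Arid1a is a subunit of the SWI/SNF complexes, which move nucleosomes and so open or close chromatin.

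All 15 libraries came from 3-month-old male mice, all with floxed Arid1a alleles and the MIP-rtTA transgene, and all given doxycycline at 1 g/L for 2 weeks. Animals with TRE-Cre in addition form the KO-labelled groups, with 3 libraries before and 4 after partial pancreatectomy (PPx), and animals without TRE-Cre form the control groups, with 4 libraries before and 4 after PPx. PPx followed 1 week after doxycycline was withdrawn, and islets were taken 6 days later. For islets taken before PPx the labels used here do not give the time since doxycycline, and no group is labelled as sham-operated. In the comparisons after against before PPx, surgery and time since doxycycline cannot be told apart. MIP is the mouse insulin promoter, so rtTA and the Cre it drives are limited to beta cells, while the islets also hold other endocrine cells. Presence of Cre and loss of Arid1a cannot be told apart, since the controls carry no Cre.

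Each ATAC-seq library, which reads out DNA that a transposase can reach, was made from 40000 islet cells. The authors' deposited tables give a group mean for each peak of 601 bp, as the log2 of normalised reads, so levels of different genes refer to equal lengths, and values of single libraries and their depth are not analysed here. The level of a group at a gene differs slightly between tables, as do the peak edges, so differences were taken within tables. At Arid1a itself a peak in exon 9 was more open under the KO label, at 5.49 in KO-labelled and 1.21 in control islets before PPx and at 4.04 in KO-labelled and 0.40 in control islets after PPx, in the authors' deposited tables. The labels do not give the exons between the loxP sites, so this peak does not settle the genotypes, and the groups are called KO-labelled throughout. Peaks were listed near 4 to 5 of 8 beta cell markers, 2 to 3 of 5 alpha cell and 1 of 2 delta cell markers, and near none of 4 acinar or 3 duct markers. The other lists had peaks near 1 to 2 of 4 endothelial, up to 1 of 3 fibroblast and up to 1 of 3 leukocyte markers. In bulk chromatin, fewer cells of a type and less open DNA per cell cannot be told apart.

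The tables hold 114 of the 213 protein-coding mouse symbols in RefSeq that the rule takes, and the other 99 have no row in the tables used here. The Mcm family had 7 of 10 members listed, Cenp 12 of 21, Ncap 4 of 6, Smc 3 of 7, Cep 24 of 38 and Kif 18 of 38. Among those with no row were the Aurora kinases Aurka, Aurkb and Aurkc, the checkpoint kinase Bub1, and the licensing genes Mcm2, Orc1, Cdc6 and Cdc45. The only Aurk name listed was Aurkaip1, an Aurora A interacting protein. Of the 141 positions, 110 were annotated as promoters, 13 as introns, 3 as exons and 13 as distal. The promoter share of the listed peaks was 78.5% for these genes against 61.4% for all peaks in the table of genotype after PPx. The peak centre lay a median of 80 bp from the RefSeq start site at the 96 promoters with one. Starts of genes on both strands lay inside 15.5% of the 110 promoter peaks and inside 10.8% of all promoter peaks, as for Cenpk with Ppwd1, Cdc26 with Prpf4 and Smc1a with Ribc1, and such a peak cannot be assigned to 1 of the genes. The same holds for Cenpn with Cmc2 and Cdc40 with Wasf1.

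The promoters of 6 members are printed as examples of the motif letters, and the shares by role follow them. The windows below run from 250 bases before to 50 bases after the RefSeq start (GRCm38.p6, the mm10 assembly), with 3 kinds of motif in capitals wherever they occur on either strand. E2F letters here are TTCCCGC and its variants TTGGCGC, followed by TTCGCGC as well as TTGCCGC, CHR letters are TTTGAA, and the third kind is CCAAT. Mcm3, a helicase subunit (minus strand, chr1:20820263-20820562), is shown for its cluster of E2F letters, 2 of which overlap each other. Rfc4, a clamp loader subunit (minus strand, chr16:23127681-23127980), had the largest called difference of all members. Cenpn, which binds the centromeric nucleosome (plus strand, chr8:116921490-116921789), holds all 3 motifs. Cdc20, the activator of the anaphase-promoting complex (minus strand, chr4:118437294-118437593), has the mitotic pair of CHR and CCAAT letters. Cdc16, a subunit of that complex (plus strand, chr8:13757406-13757705), has none of the 3, and Tubb4b, a beta-tubulin (minus strand, chr2:25224653-25224952), has 5 CCAAT boxes and CHR letters.
Mcm3: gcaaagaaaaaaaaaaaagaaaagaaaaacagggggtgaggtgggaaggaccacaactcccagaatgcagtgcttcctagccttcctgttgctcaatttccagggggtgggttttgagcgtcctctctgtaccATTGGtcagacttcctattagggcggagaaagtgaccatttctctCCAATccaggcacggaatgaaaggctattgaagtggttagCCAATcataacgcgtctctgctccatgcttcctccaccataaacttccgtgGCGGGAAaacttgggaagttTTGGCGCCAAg
Rfc4: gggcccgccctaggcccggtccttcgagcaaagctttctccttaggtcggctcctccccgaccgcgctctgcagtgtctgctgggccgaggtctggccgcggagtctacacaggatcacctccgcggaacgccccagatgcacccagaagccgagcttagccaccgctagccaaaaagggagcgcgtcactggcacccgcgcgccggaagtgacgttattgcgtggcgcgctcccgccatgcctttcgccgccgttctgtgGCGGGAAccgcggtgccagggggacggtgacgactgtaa
Cenpn: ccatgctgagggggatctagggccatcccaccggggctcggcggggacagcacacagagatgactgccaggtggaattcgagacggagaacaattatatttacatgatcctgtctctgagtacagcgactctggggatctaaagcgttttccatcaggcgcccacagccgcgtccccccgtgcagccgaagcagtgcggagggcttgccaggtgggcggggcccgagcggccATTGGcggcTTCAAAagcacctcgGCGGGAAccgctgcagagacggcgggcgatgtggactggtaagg
Cdc20: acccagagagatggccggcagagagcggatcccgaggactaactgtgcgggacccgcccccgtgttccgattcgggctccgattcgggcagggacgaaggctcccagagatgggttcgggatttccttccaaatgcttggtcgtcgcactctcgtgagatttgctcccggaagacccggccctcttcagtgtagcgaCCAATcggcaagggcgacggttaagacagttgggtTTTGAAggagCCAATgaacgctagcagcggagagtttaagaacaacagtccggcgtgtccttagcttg
Cdc16: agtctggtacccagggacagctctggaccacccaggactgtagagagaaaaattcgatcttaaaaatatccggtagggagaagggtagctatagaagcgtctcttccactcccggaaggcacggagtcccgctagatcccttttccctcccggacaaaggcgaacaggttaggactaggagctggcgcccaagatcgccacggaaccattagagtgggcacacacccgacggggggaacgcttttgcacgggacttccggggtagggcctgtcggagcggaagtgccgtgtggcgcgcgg
Tubb4b: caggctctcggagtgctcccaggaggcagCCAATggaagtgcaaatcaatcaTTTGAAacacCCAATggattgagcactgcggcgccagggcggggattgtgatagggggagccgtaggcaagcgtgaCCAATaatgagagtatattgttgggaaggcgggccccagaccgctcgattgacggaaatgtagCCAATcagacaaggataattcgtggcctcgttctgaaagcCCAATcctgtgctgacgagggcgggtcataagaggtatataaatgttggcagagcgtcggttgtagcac

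E2F letters stood in 37.0% of the 92 member windows, in 19.3% of the 6768 windows whose start lies in a promoter peak, and in 9.57% of all 32851 RefSeq windows. CHR letters stood in 26.1% of member windows, 10.5% of windows inside peaks and 17.9% of all windows. CCAAT letters stood in 48.9% of member windows, 45.0% of windows inside peaks and 37.4% of all windows. The GC content of member windows was 62.5%, against 62.3% for the windows inside peaks. By role, E2F letters were found in 8 of 9 windows of polymerase and clamp loader genes, including Pola1, Pold1, Pole2, Rfc1, Rfc3 and Rfc4. They were found in 6 of 9 licensing windows, including Mcm3, Mcm5, Mcm6 and Mcm7, and in 5 of 7 condensin and cohesin windows. In centromere windows the order was the other way, with CHR letters in 4 of 11 (Cenpa, Cenpf, Cenpn and Cenpw) and E2F letters in 2 of 11. None of the 9 polymerase and clamp loader windows held CHR letters.

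**Figure D1:**
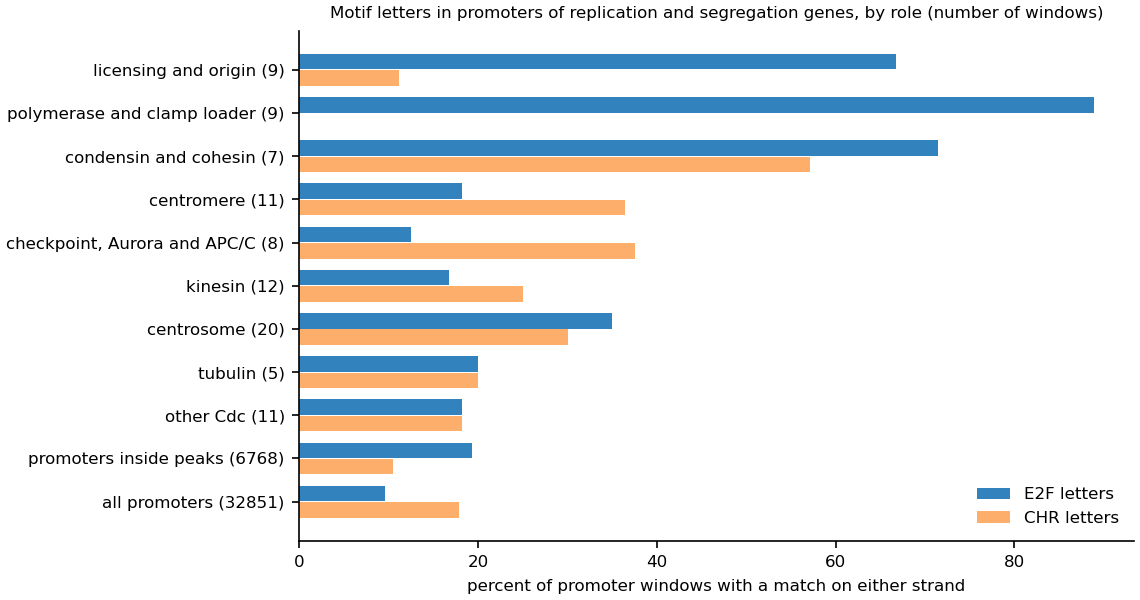
Percent of 300-bp RefSeq promoter windows with E2F (blue) or CHR (orange) letters on either strand, for each role and, below, for promoters inside peaks and for all promoters, with the number of windows in brackets. E2F letters reach 88.9% in polymerase and clamp loader genes and 66.7% in licensing genes, against 19.3% of promoters inside peaks.

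Members with and without these letters had close median differences in openness. After PPx, members with E2F letters had a median log2 difference of 0.66 between KO-labelled and control islets (34 promoters), against 0.73 for members without (56 promoters), from the authors' deposited folds. For CHR letters the medians were 0.71 with (23 promoters) and 0.71 without (67 promoters). In controls, the median difference after against before PPx was 0.18 with E2F letters (28 promoters) and 0.21 without (41 promoters). These medians describe genes of the same libraries and were not tested.

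Across the 4 comparisons, called members were found only where the KO-labelled libraries taken after PPx entered, and each of them was more open there. A peak was called at the authors' FDR of 0.05. In KO-labelled against control islets after PPx, 15 of 135 member peaks were gained (11.1%), against a background of 9.89% of 13111 peaks, and 0 were lost, against 0.0839%. After against before PPx in KO-labelled islets, 14 of 130 were gained (10.8%), against 7.45% of 12767 peaks, and 0 were lost (background 0.0%). All 15 and all 14 lie at promoters, where the shares were 14.2% of 106 member promoters against 14.3% of all promoter peaks for genotype, and 13.2% of 106 against 9.73% for PPx in KO-labelled islets. Both comparisons share the 4 KO-labelled libraries taken after PPx, and their calls are not independent of each other. Before PPx, those of the 14 also listed for genotype were all lower in KO-labelled than in control islets. The differences were -0.62 at Smc1a, -0.60 at Cenpj, -0.58 at Cenpk, -0.49 at Ncapg2 and -0.47 at Cdc40. They were -0.44 at Tubb4b, -0.41 at Cdc26, -0.37 at Anapc15, -0.28 at Tubgcp5 and -0.26 at Mcm10. The called peaks of Rfc4, Kif21b, Cdc16 and Kif5b have no match there. The 3 KO-labelled libraries taken before PPx enter both comparisons, so peaks called for a rise from them tend to be low there by selection. Of all 83 member peaks listed for genotype before PPx, 40 lay below 0. The part of these lower levels in the rise was not tested.

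In KO-labelled against control islets before PPx, 0 of 83 member peaks were called at the authors' FDR, against 0.0128% gained (1 of 7826, the Arid1a peak) and 0.0% lost among all peaks. Unadjusted p-values under 0.05 were listed for 1 higher and 1 lower member peak, Bub3 and Tubg1, against 66 higher and 180 lower of all 7826 peaks. In controls after against before PPx, 0 of 92 were called, as were 0.0% gained and 0.0% lost of all 8070 peaks. There the authors' unadjusted p was under 0.05 at 2 higher member peaks, Cdc42bpb and an intronic peak of Cep126, and at 1 lower one, Cdc37l1, against 196 higher and 8 lower of all 8070 peaks. The lowest FDR of a member was 0.999.

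The member folds sat close to a shift shared by the whole table, and with folds centred on the table median 0 of the 15 and 0 of the 14 called members passed. With Benjamini-Hochberg adjustment of the authors' p-values over all listed peaks, 8 and 7 passed. In the authors' deposited tables their median log2 difference was 0.65 for KO-labelled against control islets after PPx, against 0.61 over all peaks, and 0.87 for after against before PPx in KO-labelled islets, against 0.83 over all peaks. Before PPx the genotype median was 0.03 for members and 0.00 for all peaks, and for PPx in controls it was 0.21 and 0.16. Of the 135 member peaks 127 lay above 0 after PPx, and 75 lay above the table median. Relative to that median, the 15 called peaks were higher by 0.20 to 0.83, and the 14 called for PPx in KO-labelled islets by 0.27 to 1.20. Promoter by promoter the medians were 0.71 for members and 0.71 for all promoter peaks in KO-labelled against control islets after PPx.

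**Figure D2:**
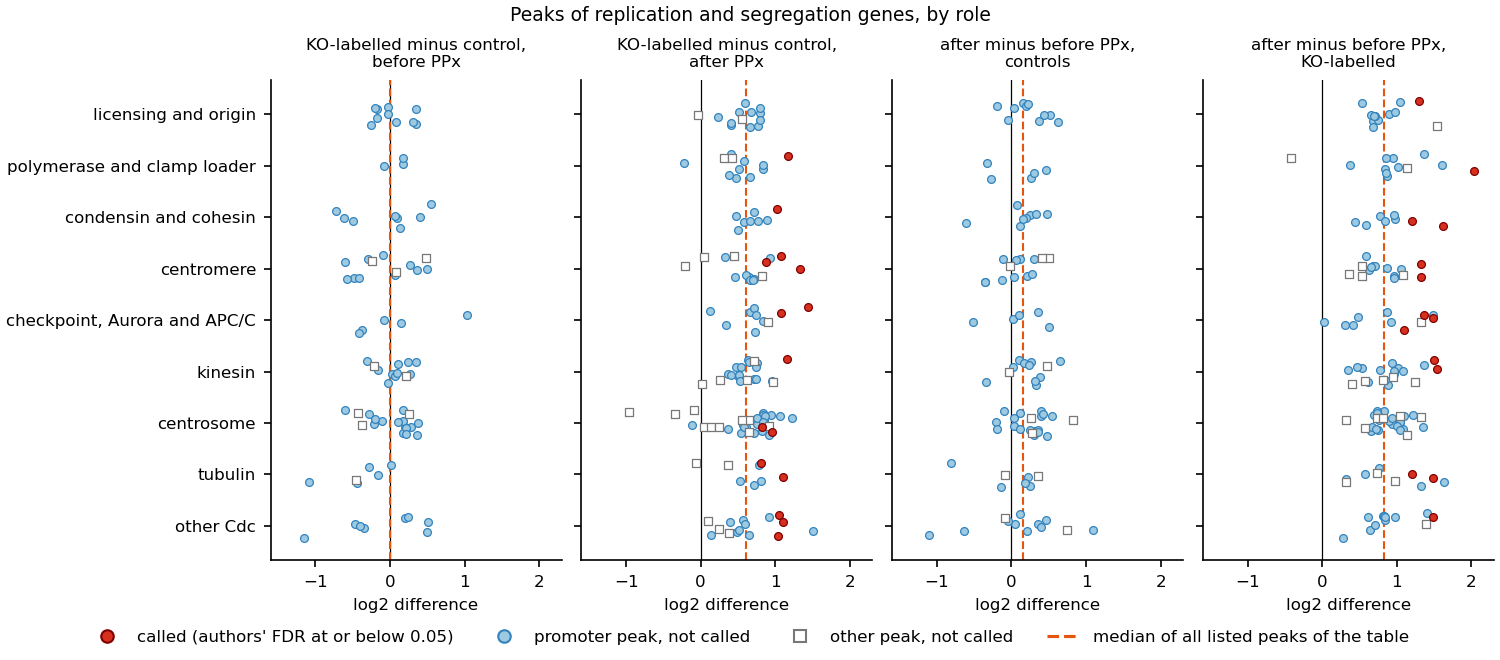
Log2 difference of each member peak (x axis) by role (y axis) in the 4 comparisons, with called peaks in red, other promoter peaks in blue and peaks elsewhere as open squares. The dashed line is the median of all listed peaks, at 0.00, 0.61, 0.16 and 0.83 from left to right, and the members scatter around it in each panel.

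Detection differed between the groups as well. In KO-labelled islets after PPx, 71 of the 135 member peaks were called in all 4 libraries, against 37 in all 4 control libraries, and 32 had no control library with a peak. Over all 13111 peaks the shares were 37.4% in all KO-labelled libraries, 18.5% in all control libraries and 28.4% in no control library. For the members they were 52.6%, 27.4% and 23.7% in that order. A peak listed only through the KO-labelled libraries had to be higher there. At low concentration, 33 of the 135 peaks carry an FDR of 1 in the authors' deposited values and could not be called. Of the 102 that could, 14.7% were gained, against 15.1% of all such peaks. Markers of islet cells differed from each other. In KO-labelled against control islets after PPx the 10 beta cell marker peaks had a median difference of 0.87 with 3 gained. The 4 alpha cell peaks had a median of 0.40 with 0 gained, and the 5 endothelial peaks 0.08 with 0 gained. Over all peaks the median was 0.61, with 9.89% gained. The 3 beta cell gains were among 4 promoter peaks, and 14.3% of all promoter peaks were gained. The alpha cell list had 1 promoter peak and the endothelial list 0. The 1 delta cell peak, at Sst, gave 1.12 and was gained (authors' FDR 0.0294). The 1 leukocyte peak, at Ptprc, gave 0.94, and the 1 fibroblast peak gave 0.22. For PPx in KO-labelled islets the medians were 1.03 over 10 beta cell peaks (1 gained) and 0.91 over 4 alpha cell peaks. Over 2 endothelial peaks the median was 0.19, and over all peaks it was 0.83, with 7.45% gained. The delta cell peak gave 0.55, the fibroblast peak 1.06 and the leukocyte peak 0.23. The part of these markers in the member values was not tested.

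**Figure D3:**
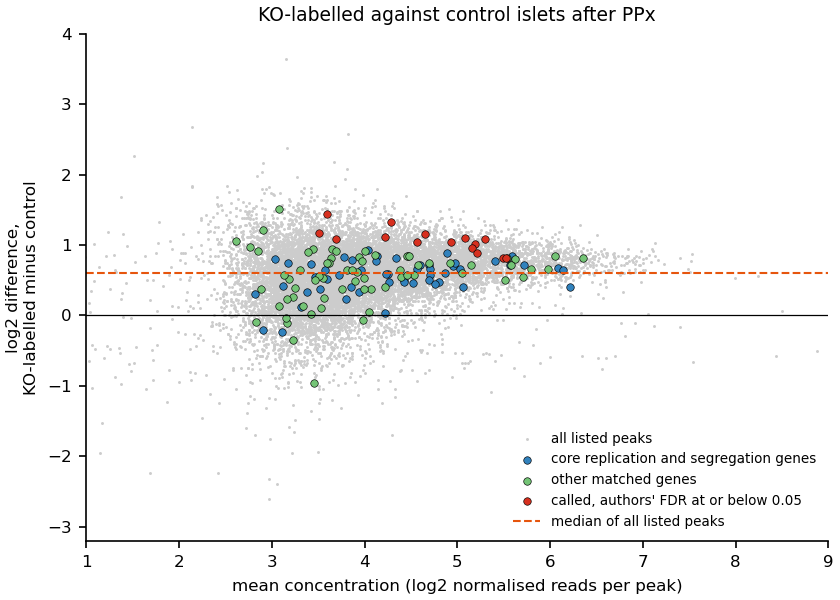
Log2 difference between KO-labelled and control islets after PPx (y axis) against mean concentration (x axis, log2 normalised reads per peak) for all listed peaks (grey), core members (blue), other members (green) and called members (red). The 229 peaks with a concentration under 1 or over 9 are not drawn. Called members lie above the dashed median of 0.61, at differences of 0.81 to 1.44.

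Among licensing genes, 0 of 13 peaks were gained in KO-labelled against control islets after PPx, against 9.89% of all peaks. Of the 13, 5 had an unadjusted p under 0.05 (33.0% of all peaks did in the higher direction). After against before PPx in KO-labelled islets 1 of 12, at Mcm10, was gained, against 7.45% of all peaks. Mcm10, which helps to start the helicase, averaged 4.66 after and 3.36 before PPx in KO-labelled islets in the authors' deposited table (difference 1.30, implied standard error 0.43, FDR 0.0433). In control islets it averaged 4.20 after and 3.67 before PPx (difference 0.52, FDR 0.999). The standard error is the one implied by the deposited fold and p. Mcm3 had the highest control level of all members after PPx, 6.40 in KO-labelled and 5.99 in control islets (difference 0.41, FDR 0.271). Before PPx the authors' table gave Mcm3 5.93 in KO-labelled and 5.85 in control islets. Its difference after against before PPx in controls was 0.37, with an implied 95% interval of -0.14 to 0.88.

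Mcm4, Mcm5, Mcm6 and Mcm7, further subunits of the helicase, were not called either. In KO-labelled against control islets after PPx the authors' deposited differences were 0.68 for Mcm4 (FDR 0.074), 0.77 for Mcm5 (FDR 0.0755), 0.59 for Mcm6 (FDR 0.185) and 0.80 for Mcm7 (FDR 1). In KO-labelled islets after against before PPx they were 0.89 for Mcm4 (FDR 0.0521), 0.98 for Mcm5, 0.75 for Mcm6 and 0.66 for Mcm7. For PPx in controls, Mcm4 gave 0.19, Mcm5 0.04 and Mcm6 0.44, and Mcm7 has no row in that table. Mcm9, a helicase of recombination repair, had a pair of promoter peaks, 0.80 and 0.66 higher in KO-labelled than in control islets after PPx, with FDRs of 0.0677 and 0.101, and an exon peak at -0.04. The origin genes gave 0.40 for Orc3 (FDR 0.289) and 0.79 for Orc6 (FDR 0.0971) in the same authors' table, and the kinase gene Cdc7, which fires origins, gave 0.23. Orc3 had the largest difference of the licensing genes in controls after against before PPx, 0.62, with an unadjusted p of 0.0571 in the authors' deposited table and an FDR of 0.999.

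The polymerase and clamp loader genes had 1 of 12 peaks gained in each of the comparisons with KO-labelled islets after PPx. Of all peaks, 9.89% were gained for genotype and 7.45% for PPx. Rfc1, the large clamp loader subunit (chr5:65335443-65336043), averaged 3.98 in KO-labelled and 2.81 in control islets after PPx in the authors' deposited table (difference 1.17, implied standard error 0.42, FDR 0.0461). Its peak was called in 3 KO-labelled libraries and in 0 control libraries. Rfc4 (chr16:23127524-23128124) averaged 4.17 after and 2.14 before PPx in KO-labelled islets in the authors' table (difference 2.03, implied standard error 0.55, FDR 0.0282). It was called in 4 libraries after PPx and in 0 before. In controls the authors' difference for Rfc4 was -0.33, at 3.34 after and 3.66 before PPx, with 1 library called in each. Pold3, a delta polymerase subunit, had the lowest fold of this role after PPx, -0.23 in KO-labelled against control islets with an FDR of 1, from the authors' table, while it averaged 3.07 after and 1.70 before PPx in KO-labelled islets (difference 1.37, FDR 1). A distal peak of Pole4, a subunit of the leading-strand polymerase, was the 1 member peak of 130 below 0 for PPx in KO-labelled islets, at 3.25 after and 3.67 before (difference -0.42, FDR 0.453).

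Condensin and cohesin genes had 1 of 8 peaks gained for genotype after PPx and 2 of 8 for PPx in KO-labelled islets. The shares of all peaks were 9.89% and 7.45%. In each comparison 5 had an unadjusted p under 0.05, against 33.0% and 39.4% of all peaks in the same order. Smc4, a condensin core subunit (chr3:69004369-69004969), averaged 5.61 in KO-labelled and 4.59 in control islets after PPx in the authors' deposited table (difference 1.02, implied standard error 0.31, FDR 0.0286). Before PPx it averaged 4.97 in KO-labelled and 4.43 in control islets (difference 0.55, FDR 1). Smc1a, a cohesin core subunit, averaged 4.63 after and 3.01 before PPx in KO-labelled islets in the authors' table (difference 1.62, implied standard error 0.45, FDR 0.0282), with the peak called in 4 and 1 libraries. In control islets Smc1a averaged 4.19 after and 3.70 before PPx (difference 0.48, FDR 0.999). Ncapg2, a subunit of condensin II, averaged 4.94 after and 3.74 before PPx in KO-labelled islets (difference 1.20, FDR 0.0475) and 4.48 after and 4.28 before PPx in controls (difference 0.19). Smc3, the cohesin partner of Smc1a, had the lowest fold of the core genes before PPx, at 3.80 in KO-labelled and 4.52 in control islets in the authors' table (difference -0.72, unadjusted p 0.112). After PPx Smc3 averaged 4.45 in KO-labelled and 3.68 in control islets (difference 0.77, FDR 0.0796).

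Centromere genes had 3 of 15 peaks gained for genotype after PPx, at Cenpn, Cenpu and Cenpw, against 9.89% of all peaks. For PPx in KO-labelled islets 2 of 15 were gained, at Cenpk and Cenpj, against 7.45% of all peaks. Among promoters these were 3 of 11 and 2 of 11, against 14.3% and 9.73% of all promoter peaks. No role was tested against these shares. Cenpn (chr8:116921340-116921940) averaged 4.80 in KO-labelled and 3.47 in control islets after PPx in the authors' deposited table (difference 1.33, implied standard error 0.39, FDR 0.0268). It averaged 4.30 in KO-labelled and 3.80 in control islets before PPx (difference 0.50, FDR 1). Cenpu, part of the inner kinetochore (chr8:46551620-46552220), averaged 5.74 in KO-labelled and 4.66 in control islets after PPx in the authors' table (difference 1.08, FDR 0.0357). Cenpw, which binds centromeric DNA as part of a histone-like complex, had its promoter at 5.58 in KO-labelled and 4.71 in control islets (difference 0.88, FDR 0.0471), and a distal peak at 4.97 in KO-labelled and 4.53 in control islets (difference 0.44, FDR 0.329). Cenpk, an inner kinetochore subunit, averaged 5.02 after and 3.69 before PPx in KO-labelled islets in the authors' table (difference 1.33, FDR 0.0339) and 4.35 after and 4.32 before PPx in controls (difference 0.03). Cenpj, which controls centriole length in spite of its name, averaged 4.73 after and 3.41 before PPx in KO-labelled islets (difference 1.32, FDR 0.0491) and 4.33 after and 4.06 before in controls (difference 0.27). Cenpa, the centromeric histone, was low, at 3.54 in KO-labelled and 3.21 in control islets after PPx (difference 0.33, FDR 1), and its peak was called in 2 KO-labelled and 0 control libraries. A distal peak of Cenpc1 was the lowest of this role, at -0.21 for genotype after PPx and 0.54 for PPx in KO-labelled islets in the authors' table.

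Checkpoint and anaphase-promoting complex genes had 2 of 10 peaks gained for genotype after PPx and 3 of 11 for PPx in KO-labelled islets. Each of them lies at a subunit of the complex. The shares of all peaks were 9.89% and 7.45%. Among promoters the counts were 2 of 9 and 3 of 10, against 14.3% and 9.73% of all promoter peaks. Cdc16 (chr8:13757337-13757937) averaged 4.15 in KO-labelled and 2.71 in control islets after PPx in the authors' deposited table (difference 1.44, implied standard error 0.42, FDR 0.0268), the largest of the 15 called differences, and was called in 3 KO-labelled and 0 control libraries. Within KO-labelled islets Cdc16 averaged 4.26 after and 2.76 before PPx (difference 1.49, FDR 0.0468), and neither remaining table lists it. Anapc13 averaged 4.14 in KO-labelled and 3.05 in control islets after PPx in the authors' table (difference 1.08, FDR 0.0471), and its peak also covers the start of Cep63 on the other strand. Cdc26 averaged 5.95 after and 4.58 before PPx in KO-labelled islets (difference 1.37, FDR 0.0299), and 5.13 after and 5.03 before PPx in controls (difference 0.10). Anapc15 averaged 5.04 after and 3.94 before PPx in KO-labelled islets (difference 1.10, FDR 0.0472) and 4.39 after and 4.37 before in controls (difference 0.02).

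The spindle checkpoint genes were not called. Bub3, a checkpoint protein at the kinetochore, averaged 4.43 in KO-labelled and 3.40 in control islets before PPx in the authors' deposited table (difference 1.03, unadjusted p 0.0161, FDR 1). After PPx it averaged 4.11 in KO-labelled and 3.76 in control islets (difference 0.34, FDR 0.407). Bub1b, the checkpoint kinase-like protein that holds back Cdc20, had the lowest fold of this role after PPx, at 3.37 in KO-labelled and 3.25 in control islets (difference 0.12, FDR 1), and it gave 0.30 for PPx in KO-labelled islets. The Cdc20 promoter printed above averaged 3.49 in KO-labelled and 2.75 in control islets after PPx in the authors' table (difference 0.74, FDR 1), with 2 KO-labelled and 0 control libraries called.

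**Figure D4:**
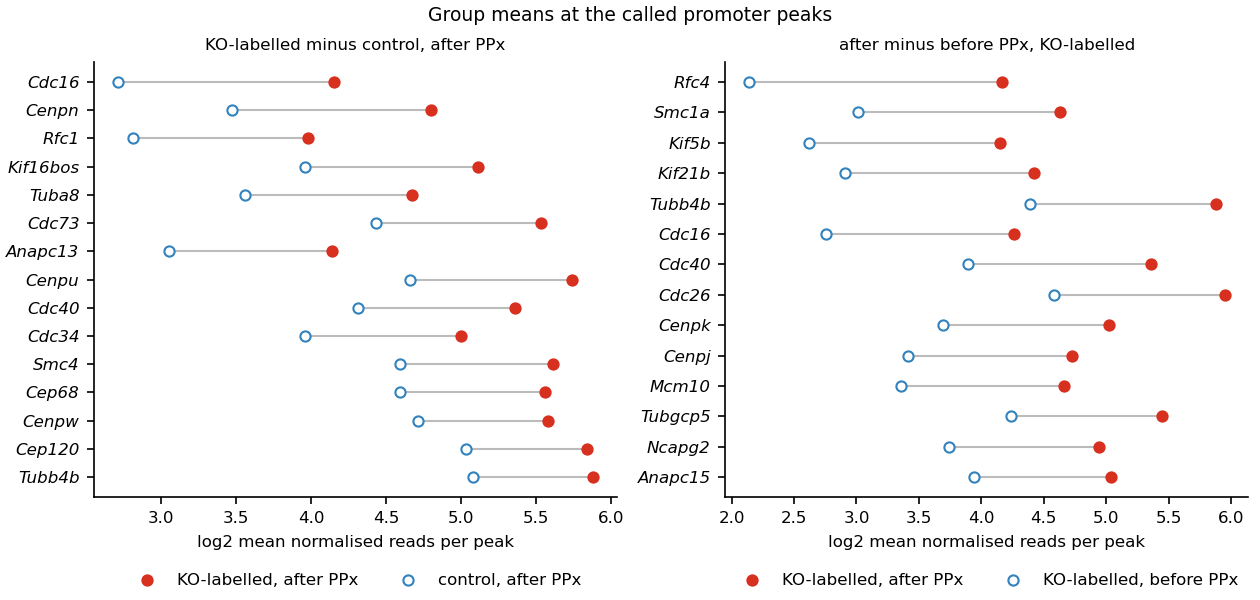
Group means (x axis, log2 normalised reads per peak) at the called promoter peaks, in KO-labelled (filled red) and control (open blue) islets after PPx on the left (15 peaks), and after (filled red) and before (open blue) PPx in KO-labelled islets on the right (14 peaks). Every filled point lies to the right of its open one, by 0.81 to 1.44 on the left and by 1.10 to 2.03 on the right.

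Kinesin genes had 1 of 21 peaks gained for genotype after PPx and 2 of 20 for PPx in KO-labelled islets, none at a mitotic motor of the core. The shares of all peaks were 9.89% and 7.45%. The gained genotype peak lies at Kif16bos, the antisense transcript of the endosomal motor Kif16b, at 5.11 in KO-labelled and 3.96 in control islets in the authors' deposited table (difference 1.16, FDR 0.0265). The called peaks for PPx in KO-labelled islets were those of the transport motor Kif5b, at 4.15 after and 2.62 before (difference 1.54, FDR 0.0472), and of the neuronal motor Kif21b, at 4.42 after and 2.91 before (difference 1.50, FDR 0.0404). Kif21b in controls averaged 4.04 after and 3.40 before PPx in the authors' table (difference 0.65, unadjusted p 0.0977). Kif11, the motor that separates the spindle poles, averaged 3.86 in KO-labelled and 3.22 in control islets after PPx (difference 0.64, FDR 0.196). A distal peak of the axonal motor Kif1a was the lowest of this role, at 0.02 for genotype after PPx, and gave 1.24 for PPx in KO-labelled islets with an unadjusted p of 0.0471 and an FDR of 1.

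Centrosome genes had 2 of 33 peaks gained for genotype after PPx, against 9.89% of all peaks. For PPx in KO-labelled islets 0 of 30 were gained, against 7.45% of all peaks. There 14 had an unadjusted p under 0.05, against 39.4% of all peaks. Cep68, a linker between centrosomes, averaged 5.56 in KO-labelled and 4.59 in control islets after PPx in the authors' deposited table (difference 0.96, FDR 0.0376). Cep120, needed for centriole growth, averaged 5.84 in KO-labelled and 5.03 in control islets (difference 0.82, FDR 0.0469). Cep128, at 6.71 in KO-labelled and 5.89 in control islets after PPx in the authors' table, had the highest KO-labelled level of all members and fell just outside the threshold (difference 0.82, FDR 0.0555). Cep131, a satellite protein of the centrosome, had the highest fold of the role, 1.22, with an FDR of 1, and gave 0.83 for PPx in KO-labelled islets. An intronic peak of Cep126 was the 1 member peak with an unadjusted p under 0.05 in the lower direction after PPx, at 2.89 in KO-labelled and 3.85 in control islets (difference -0.96, p 0.0492, FDR 1), while its promoter gave 0.61. In controls that intronic peak averaged 3.92 after and 3.09 before PPx (difference 0.83, unadjusted p 0.0407, FDR 0.999) in the authors' table.

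Tubulin genes had 2 of 8 peaks gained for genotype after PPx and 2 of 10 for PPx in KO-labelled islets, against 9.89% and 7.45% of all peaks. Among promoters the counts were 2 of 6 and 2 of 7, against 14.3% and 9.73% of all promoter peaks. Tubb4b (chr2:25224551-25225151) averaged 5.88 in KO-labelled and 5.08 in control islets after PPx in the authors' deposited table (difference 0.81, implied standard error 0.30, FDR 0.0488). Within KO-labelled islets it averaged 5.88 after and 4.39 before PPx (difference 1.49, implied standard error 0.35, FDR 0.0192), the lowest FDR of all members in that comparison, and in controls 5.13 after and 4.88 before (difference 0.25). Tuba8, an alpha-tubulin, averaged 4.67 in KO-labelled and 3.56 in control islets after PPx in the authors' table (difference 1.11, FDR 0.0486). Tubgcp5, of the gamma-tubulin ring that seeds microtubules, averaged 5.45 after and 4.24 before PPx in KO-labelled islets (difference 1.21, FDR 0.0455). Tubg1, gamma-tubulin itself, was lower before PPx, at 2.89 in KO-labelled and 3.98 in control islets (difference -1.09, unadjusted p 0.0381, FDR 1), and it has a row only there and in the table of PPx in controls, at 3.00 after and 3.81 before PPx (difference -0.81, unadjusted p 0.0608). A distal peak of Tubgcp3 gave -0.06 for genotype after PPx, -0.46 for genotype before PPx, 0.35 for PPx in controls and 0.74 for PPx in KO-labelled islets in the authors' tables.

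The remaining Cdc genes had 3 of 15 peaks gained for genotype after PPx, against 9.89% of all peaks. Among promoters the count was 3 of 12, against 14.3% of all promoter peaks. What those 3 are known for is not chromosome segregation. Cdc73, of the Paf1 transcription elongation complex (chr1:143702536-143703136), averaged 5.53 in KO-labelled and 4.43 in control islets after PPx in the authors' deposited table (difference 1.10, implied standard error 0.29, FDR 0.0212), the lowest FDR of all members in that comparison. Cdc40, a splicing factor (chr10:40883090-40883690), averaged 5.36 in KO-labelled and 4.31 in control islets (difference 1.05, FDR 0.0325), and its peak also covers the start of Wasf1. Cdc40 was also called for PPx in KO-labelled islets, at 5.36 after and 3.89 before (difference 1.48, FDR 0.023). Cdc34, a ubiquitin-conjugating enzyme of the G1 to S transition, averaged 5.00 in KO-labelled and 3.96 in control islets (difference 1.04, FDR 0.0337) in the authors' table. The Hsp90 co-chaperone gene Cdc37l1 had the highest fold of all members after PPx, at 3.64 in KO-labelled and 2.13 in control islets (difference 1.51, unadjusted p 0.00331), but an FDR of 1. Before PPx Cdc37l1 averaged 2.46 in KO-labelled and 3.62 in control islets (difference -1.15), and in controls 2.33 after and 3.44 before PPx (difference -1.11, unadjusted p 0.0399). An exon peak of Cdc14a, a mitotic phosphatase gene, was the lowest of this role after PPx, at 0.10, and gave 1.39 for PPx in KO-labelled islets with an FDR of 1.

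The KO effect after PPx was then set against that before PPx, which rest on separate libraries. At the 83 matched member positions the difference of the KO effects had a median of 0.68, against 0.64 over all 7504 matched peaks, and lay above 0 at 79. By a two-sided z test on the implied standard errors, with Benjamini-Hochberg adjustment over all 7504 peaks, 0 member peaks passed, against a background of 0.0133% with a larger and 0.0133% with a smaller KO effect after PPx. Unadjusted, 15 member peaks (18.1%) had a p under 0.05 with a larger KO effect after PPx and 0 with a smaller one. Of all peaks, 14.4% did so in the larger direction. Among promoter peaks the shares in that direction were 18.9% of 74 member peaks and 16.2% of all 5349. The median standard error of a difference was 0.528, so a change of the median size could not be called. The lowest adjusted p was 0.225 at Cdc37l1 (difference 2.66, standard error 0.789), followed by 0.298 at Cdc40 (difference 1.52, standard error 0.490). Tubb4b and Cdc26 each gave 1.25, Smc3 1.49 and Cenpk 1.30, each with an adjusted p of 0.303. Bub3 gave the lowest value, -0.69. Across 82 member positions the KO effects after and before PPx had a Pearson correlation of -0.046 and a Spearman correlation of 0.023. Over all 7504 peaks the Pearson correlation was 0.294. That value takes in peaks of every annotation and the Arid1a exon peak, at 4.28 before and 3.64 after PPx. A Spearman correlation over all peaks is not given here. These values are a description, since the positions share libraries.

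**Figure D5:**
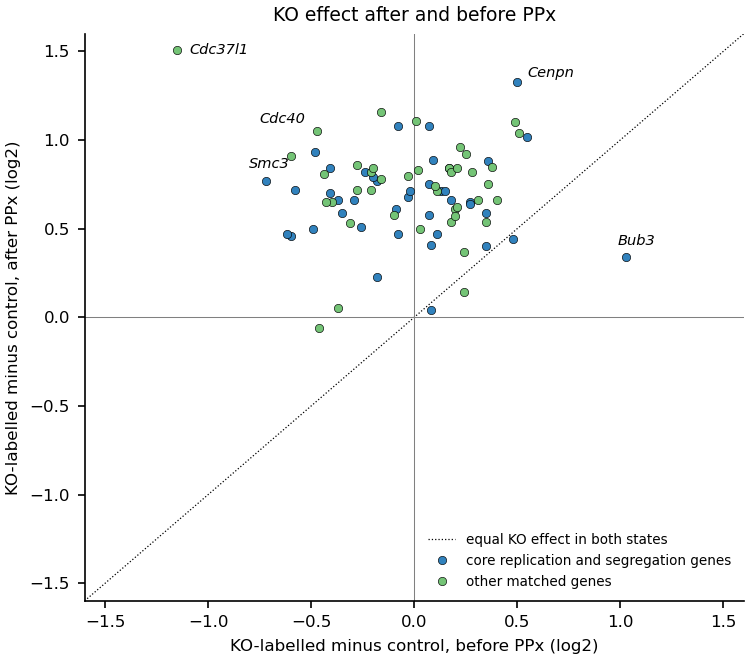
KO-labelled minus control log2 difference after PPx (y axis) against that before PPx (x axis) at each matched member position, with core genes in blue and other members in green. Most points lie above the dotted line of equal effects (79 of 83), with Cdc37l1 farthest above it and Bub3 farthest below.

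The difference after against before PPx in KO-labelled islets and that in control islets also rest on separate libraries. At 85 member positions listed in both tables, the folds for PPx in KO-labelled islets and in controls had a Pearson correlation of -0.048 and a Spearman correlation of -0.039, and that over all 7535 peaks was 0.014. Among the 78 member positions listed in all 4 tables, 78 lay above 0 for PPx in KO-labelled islets (median 0.86) and 61 for PPx in controls (median 0.20), and 77 lay above 0 for genotype after PPx (median 0.71) and 41 for genotype before PPx (median 0.05), in the authors' deposited tables.

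A list of 83 further genes of the same pathway, outside the naming rule, was read in the same way. In KO-labelled against control islets after PPx, 9 of 61 peaks were gained (14.8%) and 0 lost, with a median difference of 0.71, against 9.89% gained and a median of 0.61 over all peaks. All 9 lie at promoters, where 9 of 50 were gained (18.0%), against 14.3% of all promoter peaks. The largest was at the promoter of Pttg1, securin, which holds back the cut of cohesin, at 4.38 in KO-labelled and 2.20 in control islets in the authors' deposited table (difference 2.18, FDR 0.007). Its peak was called in 4 KO-labelled and 0 control libraries after PPx. In controls that promoter averaged 2.25 after and 3.75 before PPx (difference -1.51, FDR 0.999). The control libraries taken after PPx enter both of these differences. Within KO-labelled islets the promoter averaged 4.38 after and 3.47 before PPx (difference 0.91, FDR 0.111). Before PPx it averaged 3.70 in KO-labelled and 3.93 in control islets (difference -0.24, FDR 1). Spc25, of the outer kinetochore, averaged 5.13 in KO-labelled and 3.93 in control islets (difference 1.20, FDR 0.0272). The cyclin genes Ccna2 and Ccne2 gave 0.98 (FDR 0.0493) and 0.93 (FDR 0.0396) in the authors' table, and the centriole kinase gene Plk4 gave 1.03 (FDR 0.0396). Cohesin-linked Stag1, Stag2 and Wapl and the topoisomerase gene Top2b made up the rest, at 0.91 to 1.38. The highest was a Stag2 promoter peak that was found in 1 KO-labelled and 1 control library. Another Stag2 promoter peak, found in 4 KO-labelled and 2 control libraries, gave 0.81 and was not gained (authors' FDR 0.0887). The promoter of the division marker gene Mki67 averaged 3.56 in KO-labelled and 2.90 in control islets (difference 0.66, FDR 1). For PPx in KO-labelled islets 4 of 59 peaks were gained (6.78%, against 7.45% of all peaks), at Dscc1, Esco1, Spc25 and Stag1. In the remaining comparisons 0 of 41 (genotype before PPx) and 0 of 40 (PPx in controls) were called by the authors' test, with an unadjusted p under 0.05 at 0 of 41 and at 2 of 40.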

How the data were processed

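ATAC-seq libraries were grouped by genotype and surgery from the sample titles. The submitters' processing notes name mm10 and the tools ChIPseeker, DiffBind, MACS, BWA and cutadapt. Their versions and settings are not given in the sources used here. Deposited by the authors were 4 tables with log2 group means per 601-bp peak, log2 folds, p-values with FDR, and a count of libraries with the peak, per group. The test behind the deposited p-values is not named in the file headers. Depth per library is unknown, so no counting intervals are given.

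Repeated rows were dropped, 1197 and 5281 for genotype before and after PPx, and 1337 and 4588 for PPx in control and KO-labelled mice. The sign of each fold was set so that a positive value means more open under the KO label, or later. Dividing a fold by the normal quantile that its p implies gave its standard error. Where the fold was under 0.1 or p reached 0.95, the median of the peak's bin was used (40 bins by concentration). FDRs of 1 stand at concentrations up to 3.50 for genotype after PPx and up to 3.19 for PPx in KO-labelled islets. For genotype before PPx they stand at 7818 of 7826 peaks, up to a concentration of 16.09, and at all 83 member peaks. Positions were matched by 1 bp of overlap. Distances used RefSeq start sites of GRCm38.p6, since no deposited distance was used. RefSeq promoter windows matched 92 member promoters. The implied standard errors, the adjustment and the z test of a difference of folds were tried on simulated folds. The planted changes were larger than the median difference seen here, and the other steps were not simulated.

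Named were all called members, the highest and lowest fold per role after PPx, and Mcm, Orc, Rfc, Aurk and Bub genes found in all 4 tables. Others given with values were chosen after these were seen: Smc3, Cdc20, Cenpa, Kif11, Cdc7, Cep128, Pole4, Tubg1, Cdc42bpb and Mki67. The members and lists were chosen with earlier results of these data known. Libraries with separate sample numbers were taken as replicates, and the titles do not say whether each came from a single mouse. Tools were Python 3.11.15, pandas 2.3.3, numpy 2.4.6, scipy 1.17.1 and matplotlib 3.10.9.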

Additional observations from a re-analysis of the deposited data

How the results depend on the processing

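Counts of gained members depended on the threshold and on the scaling. For KO-labelled against control islets after PPx the count was 15, and it was 8 with Benjamini-Hochberg adjustment over all listed peaks, 0 at an FDR of 0.01, 46 at 0.10, 7 among core genes and 0 with folds centred on the table median. For after against before PPx in KO-labelled islets it was 14, and 7, 0, 54, 9 and 0 under the same settings in that order. The genes at the adjustment over all peaks included Cdc73, Cdc16, Cenpn and Smc4 for genotype and Tubb4b, Cdc40, Rfc4 and Smc1a for PPx. Centring takes the table median, 0.61 for genotype after PPx and 0.83 for PPx in KO-labelled islets, off every fold and so off the member medians too. Of the 135 member peaks for genotype after PPx, 127 lay above 0 without and 75 with centring. Among the lowest folds of the roles it turned Smc1a to -0.14, Bub1b to -0.49, Kif1a to -0.59 and Cdc14a to -0.51. By construction, fewer members enter the core and fewer peaks pass a stricter threshold. With binned standard errors, a stricter overlap, centred tables or core genes alone, the test of the KO effects after and before PPx still called 0 members.

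The median differences of the 4 comparisons moved by less than their own spread with promoters only, 1 peak per gene, repeated rows kept and peaks at or above the median concentration. No paired analysis was possible because the tables hold group means and no value of a single library, and for the same reason leaving out each replicate was not run. Low concentration limits the calls: 33 and 18 member peaks could not be called in the tables of genotype after PPx and PPx in KO-labelled islets.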
